A study of Homo sapiens with 29 samples.

Results

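The unfolded protein response is the programme by which a cell answers a load of misfolded protein in the endoplasmic reticulum (ER), and 30 of its genes were followed here out of 28266 in the count table. They were chosen by name as ER chaperones, sensors and transcription factors of the response, and targets of ATF4 and XBP1, by a rule that uses no measured value. Earlier results of these data were known when they were chosen. Of the 30, 29 had enough reads to be tested among 13136 genes, and asparagine synthetase, ASNS, did not. The study asked what loss of SMARCA4, the ATPase of the SWI/SNF chromatin remodelling complex, does to senescent cells. IMR90 ER:RAS cells are human lung fibroblasts carrying, from a retroviral vector, a fusion of RAS to the hormone-binding part of the estrogen receptor, which 4-hydroxytamoxifen (4OHT) switches on to induce senescence. DMSO_siNT cells received vehicle and a non-targeting siRNA, 4OHT_siNT cells 4OHT and a non-targeting siRNA, and 4OHT_siSMARCA4 cells 4OHT and an siRNA against SMARCA4, transfected the day before 4OHT, with RNA taken after 7 days. Each group had 6 libraries, 3 with an siRNA numbered 2 and 3 with an siRNA numbered 4. All 3 groups carry the transgene. In such bulk RNA, fewer cells of a type and less RNA per cell cannot be told apart. The labels do not say whether the libraries came from separate cultures, so the p-values measure the spread between these libraries.

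ER membrane proteins of 3 kinds sense unfolded protein. IRE1 (gene ERN1) splices the XBP1 mRNA, PERK (gene EIF2AK3) slows translation by phosphorylating eIF2 and so favours translation of ATF4, and ATF6 is cut to release a transcription factor. Their targets are chaperones such as BiP (gene HSPA5), enzymes that form disulfide bonds, the machinery that sends failed proteins for degradation, and stress genes such as DDIT3, which encodes CHOP. Splicing, phosphorylation and cleavage are not visible in gene counts, which give mRNA levels only.

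Total counts ran from 9657309 to 18039313 per library, and the members took 0.749% to 0.907% of them. SMARCA4 mRNA ranged from 275 to 330 CPM (counts scaled by library size and TMM) in 4OHT_siNT and from 70.4 to 141 CPM in 4OHT_siSMARCA4, a fall of 1.61 on the log2 scale (SE 0.14, adjusted p = 1.3e-06). All 7 fibroblast markers passed the filter on low counts, with summed levels of 10635 to 29161 CPM in DMSO_siNT, 14556 to 19281 CPM in 4OHT_siNT and 8565 to 12500 CPM in 4OHT_siSMARCA4. The lowest DMSO_siNT sum was that of library 4-2V; the other 5, from 25111 CPM upward, were all above the 4OHT_siNT libraries, and the part of these markers in the 4OHT results was not tested. Of 5 epithelial, 4 endothelial and 6 leukocyte markers 1 of each list passed, and the lists summed to at most 75.3, 5.78 and 75.0 CPM in any library. The fibroblast and epithelial sums were lower in every 4OHT_siSMARCA4 library than in every 4OHT_siNT library, and their part in the knockdown results was not tested. Mean COL1A1 and COL1A2 fell from 7053 and 2315 CPM in 4OHT_siNT to 2642 and 842 CPM with knockdown. PDGFRB, THY1 and LUM also had lower means with knockdown. Mean VIM was 6359, 6792 and 6663 CPM and mean FAP 81.9, 117 and 112 CPM in DMSO_siNT, 4OHT_siNT and 4OHT_siSMARCA4. KRT18 made nearly all of the epithelial sum and CD68 nearly all of the leukocyte sum. A single library stood apart: in DMSO_siNT 4-2V the transgene's partners were low, with ESR1 at 29.5 CPM against 1034 to 1316 CPM in the other 5 DMSO_siNT libraries, and HRAS at 436 CPM against 2165 to 2852 CPM. Across the members its median absolute distance from the mean of the other 5 was 0.42 on the log2 scale, against 0.15 to 0.22 for each of those, so results are given with and without it. The set letters in the labels, whose meaning is not given, were also unevenly spread: all 6 4OHT_siNT libraries are of VM sets, while DMSO_siNT has 3 V and 3 VM, and 4OHT_siSMARCA4 has 3 V, 2 VM and 1 library whose column is headed 2-1VM but which no sample title matches. That library was left out of the fits within VM sets, unless stated.

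The promoters of these genes are shown first, because DNA elements read by the response's transcription factors are part of what groups them. RefSeq promoters (GRCh38.p14) were found for 29 of the 30 genes, and the 250 bases before each start site were searched on both strands for the ER stress response element (ERSE, CCAAT and CCACG with any 9 bases between), its variant (ERSE-II, ATTGG and CCACG with any 1 base between), the unfolded protein response element (UPRE, TGACGTGG) and an ATF4 element (TGATGNAA). ERSE stood in the promoters of 7 members (24.1%), HSPA5, HSP90B1, CALR, CANX, PDIA6, XBP1 and CRELD2, and in 0.0744% of 34943 promoters in all. ERSE-II stood in 3 members (10.3%; HYOU1, SDF2L1 and HERPUD1) and in 0.0515% of all promoters. UPRE was found for HYOU1 (0.615% of all promoters), and the ATF4 element for CHAC1, ASNS and HERPUD1 (3.15% of all promoters). In total 12 members (41.4%) held 1 motif or more, against 3.86% of promoters. A member counted if any of its promoters held the motif, with 41 promoters listed for the 29 members. The shares of members are therefore per gene and those of all promoters per promoter, which are unlike units. A match is a run of letters, and binding was not measured here. The 4 printed here belong to members whose mRNA passed the test in 4OHT_siNT against DMSO_siNT or in 4OHT_siSMARCA4 against 4OHT_siNT. The rest of the 12 did not pass there, and a link of motif to change was not tested. HSP90B1 passed in 4OHT_siSMARCA4 against DMSO_siNT alone and is not printed. Stretches are read 5′ to 3′ on the gene's strand with the motif in capitals. No annotated exon covers the first 3 stretches, and the CHAC1 stretch lies inside an annotated exon.
HSPA5 (chr9:125241383-125241593, minus strand, −250 to −40 from the start site, ERSE): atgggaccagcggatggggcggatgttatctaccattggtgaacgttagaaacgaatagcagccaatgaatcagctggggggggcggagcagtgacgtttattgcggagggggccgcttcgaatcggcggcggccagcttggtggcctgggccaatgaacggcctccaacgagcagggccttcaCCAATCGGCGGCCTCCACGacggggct
HYOU1 (chr11:119057228-119057455, minus strand, −250 to −23 from the start site, UPRE overlapping 1 ERSE-II, then another ERSE-II): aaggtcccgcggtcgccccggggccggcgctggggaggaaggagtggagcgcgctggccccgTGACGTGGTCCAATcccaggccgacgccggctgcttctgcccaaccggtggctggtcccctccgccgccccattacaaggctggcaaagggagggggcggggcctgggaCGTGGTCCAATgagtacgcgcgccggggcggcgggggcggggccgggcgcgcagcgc
PDIA6 (chr2:10812840-10813035, minus strand, −250 to −55 from the start site, ERSE): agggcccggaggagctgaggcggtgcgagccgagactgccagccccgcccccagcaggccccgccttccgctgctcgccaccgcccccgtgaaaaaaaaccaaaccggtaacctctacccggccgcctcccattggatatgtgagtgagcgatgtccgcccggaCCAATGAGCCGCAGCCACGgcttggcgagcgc
CHAC1 (chr15:40953251-40953280, plus strand, −220 to −191 from the start site, ATF4 element on the other strand): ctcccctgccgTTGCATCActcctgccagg

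Does oncogenic RAS, switched on by 4OHT, change the response? Of the 29 genes, 14 differed between 4OHT_siNT and DMSO_siNT (48.3%), where 52.8% of all genes tested differed (adjusted p under 0.05, edgeR quasi-likelihood test, Benjamini-Hochberg over all genes). The direction was uneven: 12 members were higher (41.4%, against 23.9% of all genes) and 2 lower (6.9%, against 28.9%). The rises were in the sensors ERN1 and EIF2AK3, in DDIT3, in TRIB3, CHAC1 and PPP1R15A below PERK and ATF4, in SYVN1 and EDEM1 of ER-associated degradation, and in the chaperones HSPA5, HYOU1, DNAJB9 and PDIA4. The transcription factors XBP1, ATF4, ATF6 and CREB3L2 did not pass the test. The median log2 fold change of the members was 0.17, beside −0.05 over all genes, and their median absolute change was 0.29, beside 0.46. Every 4OHT_siNT library lay above every DMSO_siNT library for 9 members (17% of all genes did so), and below for 1 (16.8% of all genes).

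**Figure D1:**
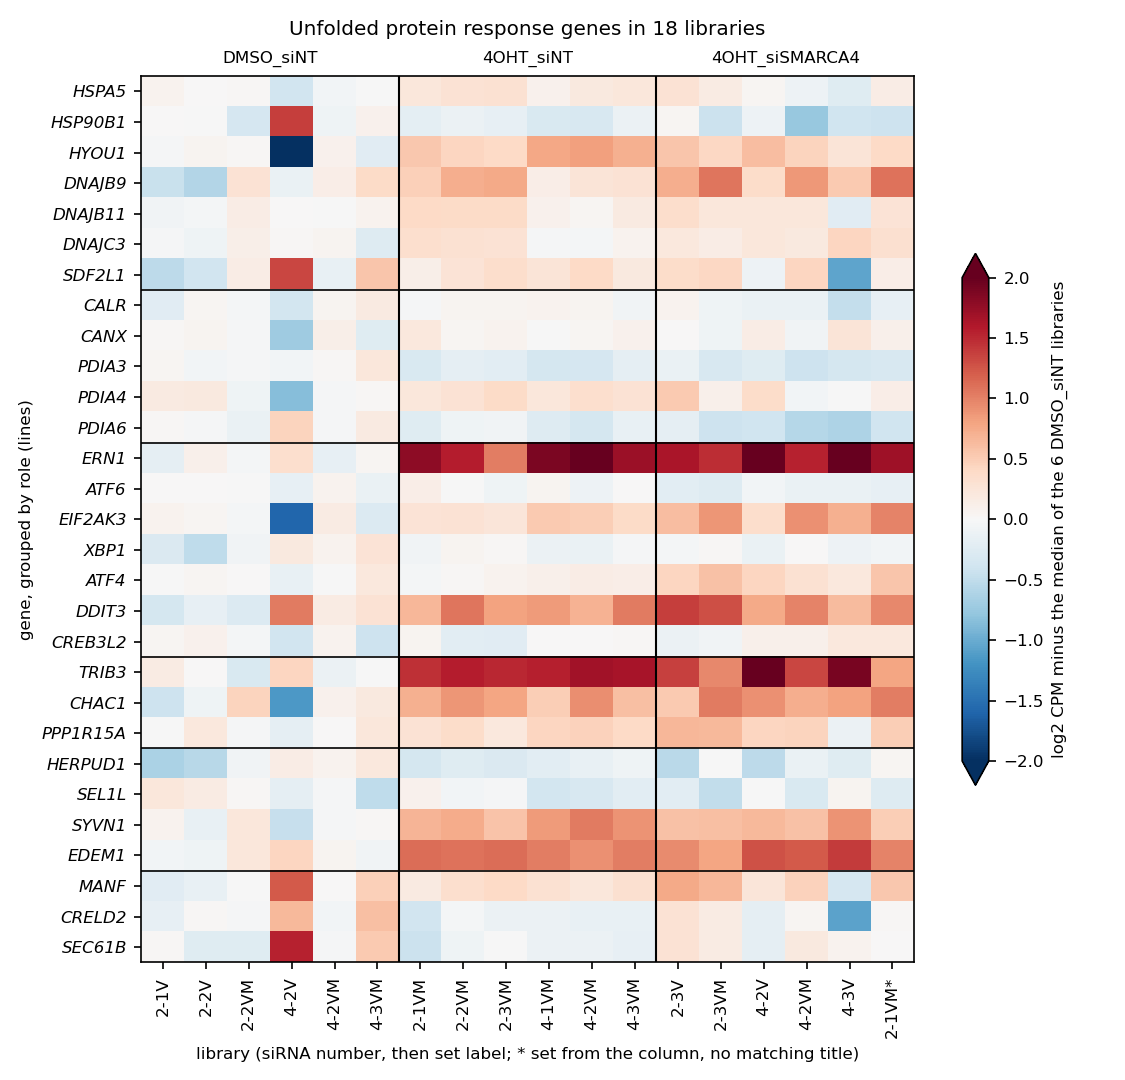
Each row is a gene and each column a library; colour gives log2 CPM minus the median of the 6 DMSO_siNT libraries (scale −2 to 2), with genes grouped by role. ERN1, TRIB3 and EDEM1 are red in all 12 4OHT libraries, and DMSO_siNT 4-2V stands out within its group.

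ERN1, the gene of IRE1, had the largest rise of the 29. Its level ran from 4.20 to 5.98 CPM (median 4.76) in DMSO_siNT and from 9.68 to 19.7 CPM (median 16.0) in 4OHT_siNT. The groups did not overlap, and the lowest 4OHT_siNT library, 2-3VM, stood apart below the other 5, which began at 14.2 CPM. On the log2 scale the rise was 1.69 ± 0.18 (SE, as for every fold change here; adjusted p = 2.75e-07). EIF2AK3, the gene of PERK, ran from 5.86 to 19.8 CPM (median 17.6) in DMSO_siNT and from 20.8 to 25.3 CPM (median 22.2) in 4OHT_siNT. The ranges were separate but close, and the DMSO_siNT minimum was library 4-2V, the next lowest being 14.6 CPM. Its log2 fold change was 0.53 ± 0.19 (adjusted p = 0.0278), and 0.38 without 4-2V (adjusted p = 0.00649). ATF6, the remaining sensor, sat between 58.4 and 68.6 CPM in DMSO_siNT and between 61.1 and 71.4 CPM in 4OHT_siNT (log2 fold change 0.03 ± 0.07, adjusted p = 0.712).

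DDIT3, the gene of CHOP, a transcription factor tied to death under prolonged ER stress, was the transcription factor that rose. DMSO_siNT libraries held 8.84 to 23.1 CPM (median 11.3) and 4OHT_siNT libraries 17.8 to 23.6 CPM (median 19.96). The overlap came from library 4-2V alone, since the other 5 DMSO_siNT libraries ended at 13.8 CPM. The log2 fold change was 0.67 ± 0.20 (adjusted p = 0.00796), and 0.91 without 4-2V (adjusted p = 2.25e-05). About 27.2% of its exon bases are also exons of MARS1 on the opposite strand, and whether reads were counted by strand is not given in the sources used here. ATF4, which PERK acts on through translation, was at 167 to 214 CPM in DMSO_siNT and 180 to 205 CPM in 4OHT_siNT (log2 fold change 0.06 ± 0.09, adjusted p = 0.597). XBP1 mRNA, of which spliced and unspliced forms were counted as 1 gene, was at 76.8 to 132 CPM and 99.4 to 113 CPM (log2 fold change −0.01 ± 0.11, adjusted p = 0.92). CREB3L2, a membrane-bound factor related to ATF6, was at 91.0 to 129 CPM and 104 to 126 CPM (log2 fold change 0.04 ± 0.11, adjusted p = 0.768). For all 3 factors the 4OHT_siNT range lay inside the DMSO_siNT range.

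All 3 tested members listed as targets of the PERK and ATF4 arm rose. Of 29 other ATF4 targets, described below, 12 were higher and 8 lower. TRIB3, a pseudokinase induced by ATF4 and CHOP, ran from 14.9 to 24.7 CPM (median 18.3) in DMSO_siNT and from 50.2 to 59.0 CPM (median 54.1) in 4OHT_siNT. No library of either group came near the other group, and the log2 fold change was 1.53 ± 0.18 (adjusted p = 1.07e-06). CHAC1, an enzyme that degrades glutathione and carries the ATF4 element shown above, went from 16.3 to 49.1 CPM (median 36.1) in DMSO_siNT to 50.4 to 68.6 CPM (median 60.2) in 4OHT_siNT. The ranges almost met at 49.1 and 50.4 CPM, and the DMSO_siNT minimum was again 4-2V. Its log2 fold change was 0.81 ± 0.18 (adjusted p = 0.00107). PPP1R15A (GADD34), the phosphatase subunit that reverses eIF2 phosphorylation, ran from 175 to 230 CPM (median 197) and from 228 to 272 CPM (median 257), with a slight overlap and a log2 fold change of 0.32 ± 0.12 (adjusted p = 0.0285). ASNS had 0 to 9 reads per library in all 3 groups, too few for a test, and the table also lists an overlapping read-through gene, CZ1P-ASNS; how reads shared by that pair were counted is not given in the sources used here.

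In ER-associated degradation, which pulls failed proteins out of the ER for the proteasome, the pattern was split. EDEM1, a mannosidase-like protein that marks glycoproteins for disposal, ran from 84.1 to 120 CPM (median 88.9) in DMSO_siNT and from 167 to 193 CPM (median 184) in 4OHT_siNT. SYVN1 (HRD1), the ubiquitin ligase of the pathway, ran from 31.7 to 51.1 CPM (median 43.5) and from 64.5 to 89.8 CPM (median 75.9). For both genes every 4OHT_siNT library was above every DMSO_siNT library, with log2 fold changes of 0.95 ± 0.12 (adjusted p = 1.15e-06) for EDEM1 and 0.84 ± 0.11 (adjusted p = 3.4e-06) for SYVN1. SEL1L, the partner of SYVN1 in the same complex, was at 102 to 170 CPM and 112 to 155 CPM (log2 fold change −0.11 ± 0.13, adjusted p = 0.494). HERPUD1, which helps recruit that complex, was at 63.4 to 113 CPM and 76.7 to 92.7 CPM (log2 fold change −0.12 ± 0.14, adjusted p = 0.508). For both SEL1L and HERPUD1 the 4OHT_siNT range lay inside the DMSO_siNT range.

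**Figure D2:**
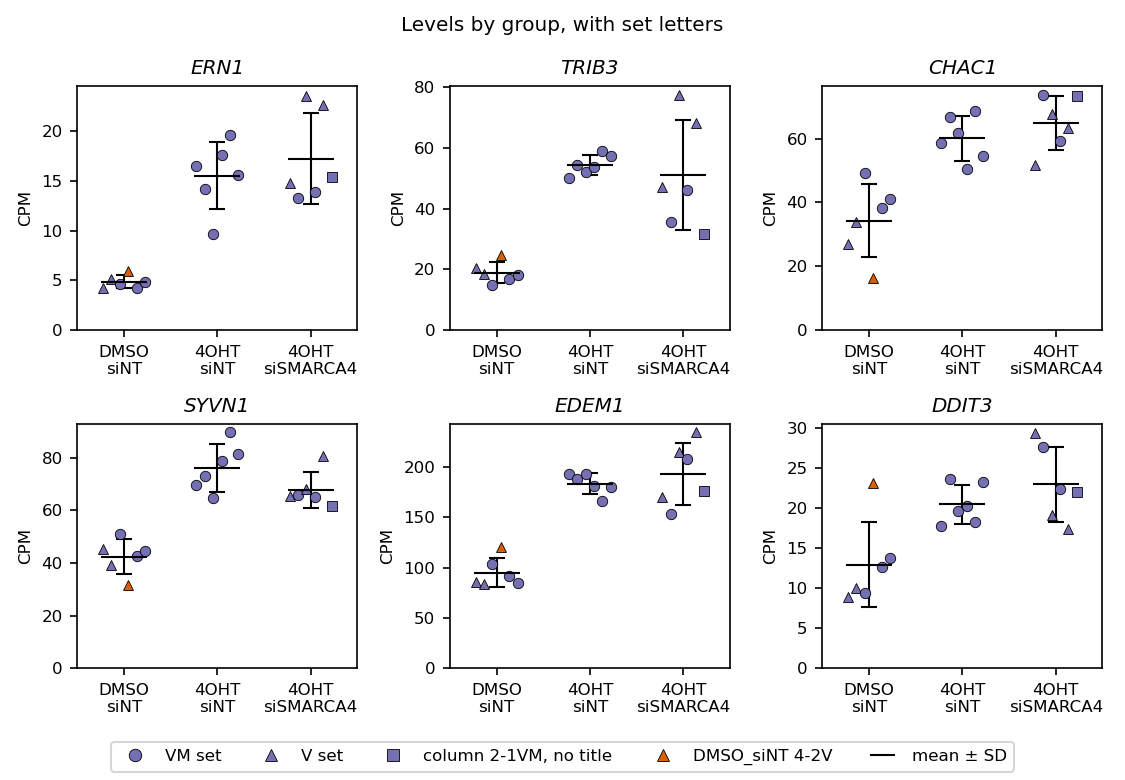
CPM of 6 members in each library (points; shape gives the set letters, orange marks DMSO_siNT 4-2V), with the mean and SD of the 6 libraries per group. For ERN1, TRIB3, CHAC1, SYVN1 and EDEM1 the DMSO_siNT libraries lie below all 12 4OHT libraries, and for DDIT3 1 DMSO_siNT library, 4-2V, lies among them.

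Among the 7 ER chaperones and co-chaperones 3 rose. HSPA5 (BiP), the central Hsp70 of the ER and a standard marker of the response, ran from 849 to 1165 CPM (median 1110) in DMSO_siNT and from 1178 to 1364 CPM (median 1295) in 4OHT_siNT. Its ranges missed each other narrowly, and the log2 fold change was 0.27 ± 0.11 (adjusted p = 0.0397). The DMSO_siNT minimum of HSPA5 was 4-2V, with the other 5 from 1075 CPM upward. HYOU1, a nucleotide exchange factor for BiP whose promoter carries UPRE and ERSE-II, ran from 37.2 to 191 CPM (median 180) and from 238 to 318 CPM (median 278). The ranges were well apart, and the DMSO_siNT minimum was 4-2V, with the other 5 from 154 CPM upward. The log2 fold change was 0.84 ± 0.25 (adjusted p = 0.00779), and 0.64 ± 0.09 without 4-2V. DNAJB9, a BiP co-chaperone and target of XBP1, ran from 23.9 to 46.7 CPM (median 36.05) and from 39.3 to 60.7 CPM (median 46.9), with overlap and a log2 fold change of 0.47 ± 0.17 (adjusted p = 0.0281). Its 2 lowest DMSO_siNT libraries, at 23.9 and 26.4 CPM, were of V sets, and within VM sets the log2 fold change was 0.19 (adjusted p = 0.265).

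The other 4 chaperones did not pass the test. HSP90B1 (GRP94) was at 984 to 3242 CPM in DMSO_siNT and 998 to 1149 CPM in 4OHT_siNT, and its log2 fold change of −0.50 ± 0.23 (adjusted p = 0.0712) shrank to −0.13 without 4-2V, the library at 3242 CPM. SDF2L1, a partner of ER co-chaperones, was likewise highest in 4-2V, at 81.4 CPM against 22.3 to 47.5 CPM in the other 5 and 34.9 to 42.3 CPM in 4OHT_siNT (log2 fold change −0.04 ± 0.27, adjusted p = 0.905, and 0.29 ± 0.21, adjusted p = 0.252, without 4-2V). DNAJB11, a co-chaperone of BiP, went from 95.9 to 112 CPM to 104 to 132 CPM (log2 fold change 0.23 ± 0.10, adjusted p = 0.0622). DNAJC3 (P58IPK), an inhibitor of PERK and a co-chaperone, went from 74.8 to 97.3 CPM to 87.7 to 113 CPM (log2 fold change 0.19 ± 0.09, adjusted p = 0.0963). In these last 2 genes the groups overlapped with 4OHT_siNT on the upper side.

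The protein disulfide isomerases moved in both directions. PDIA4, a thioredoxin-like isomerase, ran from 155 to 319 CPM (median 279) in DMSO_siNT and from 324 to 363 CPM (median 342) in 4OHT_siNT, with a log2 fold change of 0.35 ± 0.14 (adjusted p = 0.0468). The DMSO_siNT minimum of PDIA4 was 4-2V, with the other 5 from 262 CPM upward. Its log2 fold change was 0.24 to 0.41 over the 18 fits that left out 1 library. PDIA3, the isomerase that works with calnexin and calreticulin on glycoproteins, ran from 565 to 687 CPM (median 590) and from 461 to 521 CPM (median 492). PDIA3 was the member whose 4OHT_siNT libraries all lay below the DMSO_siNT libraries, with a log2 fold change of −0.29 ± 0.08 (adjusted p = 0.00697). PDIA6, which acts on the sensors IRE1 and PERK, ran from 531 to 792 CPM (median 584) and from 458 to 555 CPM (median 510), with a log2 fold change of −0.28 ± 0.11 (adjusted p = 0.0358). Its highest value was 4-2V, without which the log2 fold change was −0.19 (adjusted p = 0.0585); 25.2% of its exon bases also belong to exons of ATP6V1C2 on the opposite strand. The lectin chaperones CALR, at 1415 to 2074 CPM and 1742 to 1922 CPM, and CANX, at 472 to 831 CPM and 762 to 888 CPM, did not pass the test (adjusted p = 0.599 and 0.234).

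None of the 3 genes for secreted ER stress proteins and the translocon passed the test. MANF, a stress-induced secreted factor, was at 71.5 to 197 CPM in DMSO_siNT and 94.7 to 111 CPM in 4OHT_siNT (log2 fold change −0.02 ± 0.21, adjusted p = 0.933). CRELD2, secreted on ER stress, was at 60.6 to 106 CPM and 51.6 to 65.9 CPM (log2 fold change −0.36 ± 0.18, adjusted p = 0.105). SEC61B, a subunit of the channel through which new proteins enter the ER, was at 86.5 to 298 CPM and 76.2 to 101 CPM (log2 fold change −0.57 ± 0.24, adjusted p = 0.0504). In all 3 the highest DMSO_siNT library was 4-2V, without which the log2 fold changes were 0.25 for MANF, −0.26 for CRELD2 and −0.18 for SEC61B (adjusted p = 0.152, 0.216 and 0.222).

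**Figure D3:**
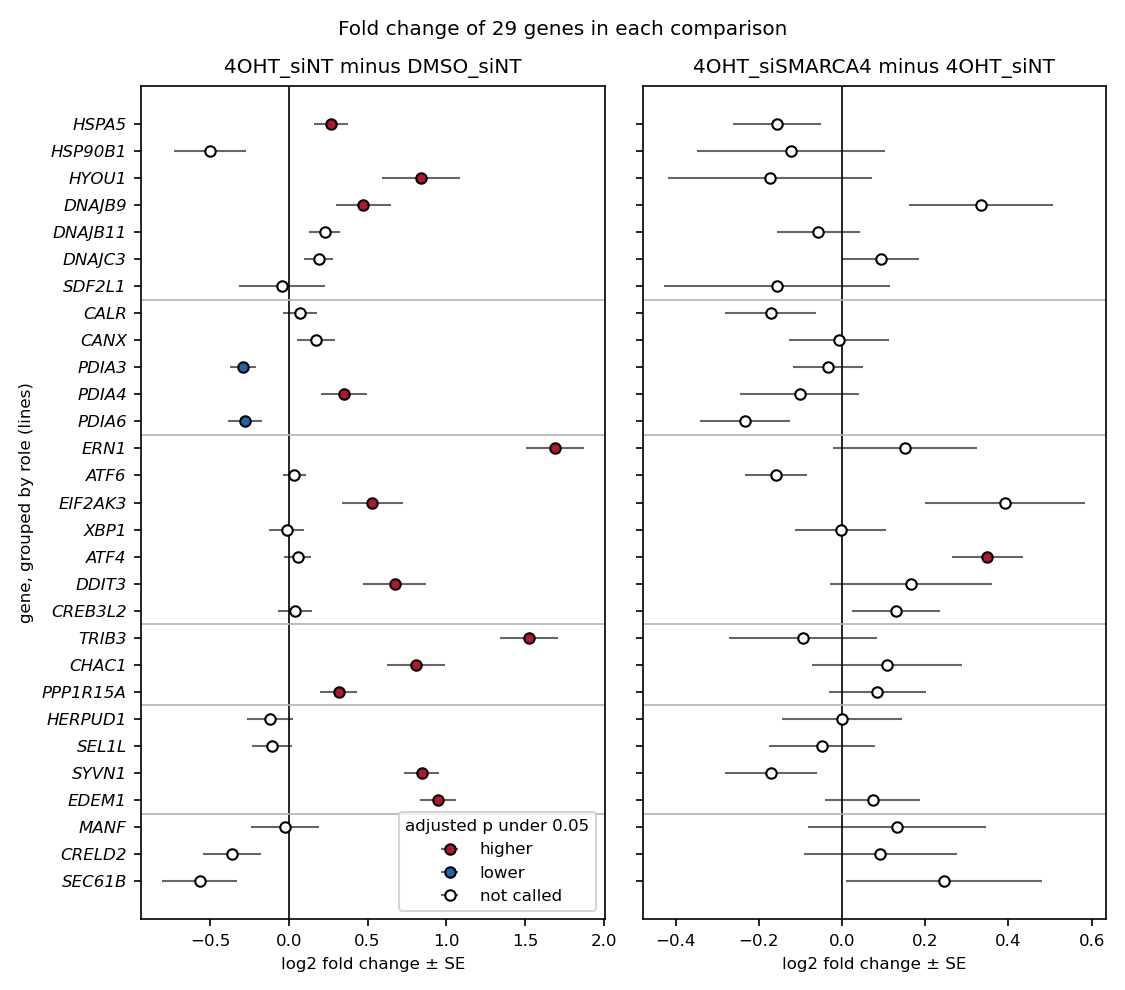
Log2 fold change (points) and its SE (bars) of the 29 tested genes, for 4OHT_siNT against DMSO_siNT on the left and 4OHT_siSMARCA4 against 4OHT_siNT on the right; filled points passed adjusted p under 0.05. The left panel spans −0.57 to 1.69, with 12 genes higher and 2 lower; on the right ATF4 alone is filled and all values lie between −0.23 and 0.39.

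Leaving out DMSO_siNT 4-2V, 14 members again differed, when 58.3% of all genes did, 13 of them higher (27.9% of all genes) and 1 lower (30.3%); DNAJB11 joined the genes that were higher (log2 fold change 0.23) and PDIA6 dropped out. Within VM sets, with 3 DMSO_siNT and 6 4OHT_siNT libraries, 14 members differed, beside 53.5% of all genes, 11 of them higher (25.6%) and 3 lower (27.9%). There PDIA3, HERPUD1 and CRELD2 were lower, while PDIA6 and DNAJB9 did not pass. ERN1, TRIB3, CHAC1, SYVN1 and EDEM1 passed the test in all 31 other fits that were run. HYOU1 and DDIT3 passed in 28 of 31, PDIA3 in 27, EIF2AK3 in 24, DNAJB9 in 20, PPP1R15A in 20, HSPA5 in 19, PDIA4 in 13 and PDIA6 in 11. Leaving out any 1 of 6 libraries took HSPA5 past an adjusted p of 0.05 (DMSO_siNT 4-2VM, and 4OHT_siNT 2-1VM, 2-2VM, 2-3VM, 4-2VM or 4-3VM), with log2 fold changes of 0.21 to 0.30 over all 18 such fits.

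**Figure D4:**
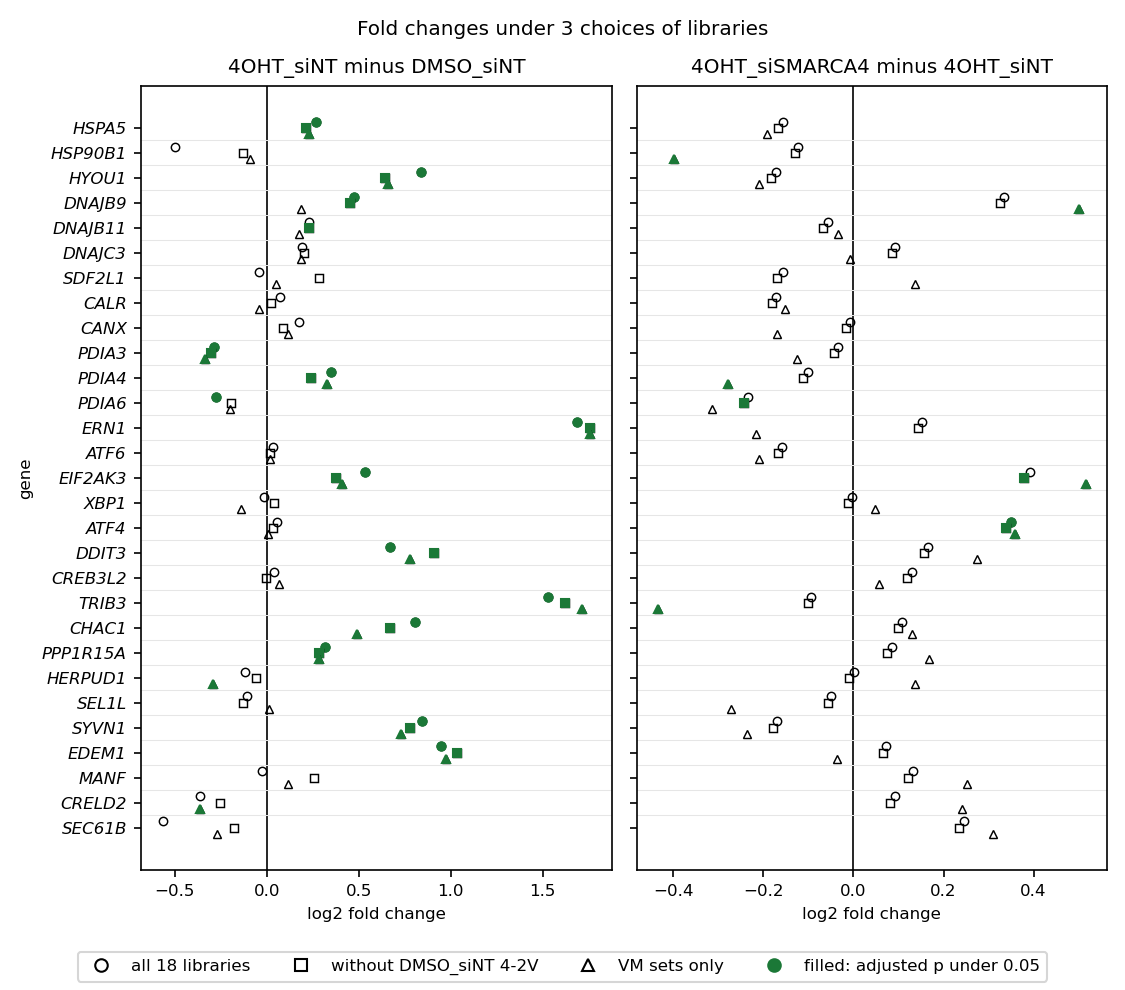
Log2 fold changes (horizontal axes) of the 29 genes, for 4OHT_siNT against DMSO_siNT on the left and 4OHT_siSMARCA4 against 4OHT_siNT on the right, with all 18 libraries (circles), without DMSO_siNT 4-2V (squares) and within VM sets (triangles); filled green symbols passed adjusted p under 0.05. For HSP90B1 and SEC61B the left-panel value moves toward 0 in both restricted fits, and in the right panel EIF2AK3 is green in both.

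Does SMARCA4 knockdown change the response in 4OHT-treated cells? A single gene of the 29, ATF4, differed between 4OHT_siSMARCA4 and 4OHT_siNT (3.45%), where 10.6% of all genes tested did, 4.99% higher and 5.65% lower. A gene that did not pass may still have changed, and the size of change that could be missed among the 29 was not tested. ATF4 ran from 180 to 205 CPM (median 197) in 4OHT_siNT and from 215 to 277 CPM (median 249) in 4OHT_siSMARCA4. All 6 knockdown libraries were above all 6 controls, as for 5.12% of all genes, and no member lay wholly below (6.27% of all genes), with a log2 fold change of 0.35 ± 0.09 (adjusted p = 0.0129). By siRNA, the 3 libraries of siSMARCA4_2 were at 250 to 277 CPM against 180 to 195 CPM for siNT 2, a log2 fold change of 0.50 ± 0.12 (adjusted p = 0.0149, where 7.67% of all genes passed). The 3 of siSMARCA4_4 were at 215 to 249 CPM against 199 to 205 CPM for siNT 4, a log2 fold change of 0.18 ± 0.12 (adjusted p = 0.473, where 2.71% passed). The difference between these 2 effects was 0.32 ± 0.17 (adjusted p = 0.719). Within VM sets the knockdown difference was 0.36 (adjusted p = 0.0233), and without DMSO_siNT 4-2V it was 0.34 (adjusted p = 0.00229), but without the library headed 2-1VM or without library 2-3VM the adjusted p rose to 0.0522 and 0.0537.

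The 3 tested members listed as targets of the PERK and ATF4 arm did not pass the test in this comparison. Of 29 other ATF4 targets, described below, 2 were higher and 1 lower. TRIB3 spread widely in 4OHT_siSMARCA4, from 31.7 to 77.3 CPM (median 46.6), around the narrow 50.2 to 59.0 CPM of 4OHT_siNT (log2 fold change −0.09 ± 0.18, adjusted p = 0.798). Its 3 highest knockdown libraries were of V sets, and within VM sets, with 2 knockdown libraries, TRIB3 was lower by a log2 fold change of −0.43 (adjusted p = 0.0215), and by −0.54 ± 0.11 (adjusted p = 0.00199) with the library headed 2-1VM as the third. The spread also ran with the siRNA: the 3 libraries of siSMARCA4_2 were at 31.7 to 47.2 CPM, below all siNT 2 libraries (log2 fold change −0.45 ± 0.19, adjusted p = 0.187), and those of siSMARCA4_4 at 46.1 to 77.3 CPM (0.16 ± 0.19, adjusted p = 0.741). Of the 3 V libraries, 2 carry siSMARCA4_4, including both of the highest, so set letters and siRNA were not evenly crossed. The difference between the siRNA effects was −0.61 ± 0.27 (adjusted p = 0.648). CHAC1 was at 51.8 to 73.6 CPM, PPP1R15A at 182 to 312 CPM and DDIT3 at 17.4 to 29.4 CPM with knockdown, each overlapping 4OHT_siNT, with log2 fold changes of 0.11 ± 0.18, 0.08 ± 0.12 and 0.17 ± 0.19.

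EIF2AK3 had the largest rise in value of the 29, 0.39 ± 0.19 on the log2 scale, without passing the test (adjusted p = 0.215). Its knockdown libraries ran from 22.4 to 35.0 CPM (median 30.7) beside 20.8 to 25.3 CPM in 4OHT_siNT, and 5 of the 6 were above every control library. Library 4-2V of DMSO_siNT, which is no part of this difference but adds to the shared estimate of spread, was the lowest of all 18 for this gene; without it the log2 fold change was 0.38 ± 0.10 and the adjusted p 0.0114. Within VM sets the value was 0.52 (adjusted p = 0.00852). PDIA6 had the largest fall in value, from 458 to 555 CPM to 379 to 515 CPM (median 440), a log2 fold change of −0.23 ± 0.11 (adjusted p = 0.184, and 0.0345 without 4-2V). ERN1, with 13.2 to 23.6 CPM (median 15.1) beside 9.68 to 19.7 CPM, differed by 0.15 ± 0.17 on the log2 scale (adjusted p = 0.645), and ATF6, at 54.6 to 63.0 CPM beside 61.1 to 71.4 CPM, by −0.16 ± 0.07 (adjusted p = 0.186).

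Every other chaperone, isomerase and degradation gene overlapped between the 2 groups. HSPA5 ran from 942 to 1351 CPM (median 1189) with knockdown beside 1178 to 1364 CPM, a log2 fold change of −0.16 ± 0.11 (adjusted p = 0.385). DNAJB9 ran from 46.0 to 75.8 CPM (median 62.5) beside 39.3 to 60.7 CPM, a log2 fold change of 0.33 ± 0.17 (adjusted p = 0.24), and within VM sets 0.50 (adjusted p = 0.0288). SYVN1 was at 61.5 to 80.7 CPM, EDEM1 at 154 to 235 CPM and HYOU1 at 215 to 275 CPM, with log2 fold changes of −0.17 ± 0.11, 0.07 ± 0.11 and −0.17 ± 0.25. Of the remaining members the log2 fold changes lay between −0.17 (CALR) and 0.25 (SEC61B). Without DMSO_siNT 4-2V, 3 members differed, ATF4, EIF2AK3 and PDIA6, the first 2 higher and PDIA6 lower, when 24.6% of all genes did (11.7% higher, 12.9% lower). Within VM sets DNAJB9, EIF2AK3 and ATF4 were higher and HSP90B1, PDIA4 and TRIB3 lower, 6 in all, when 21% of all genes differed (8.76% higher, 12.2% lower). With the library headed 2-1VM added to the VM sets, those 6 and PDIA6 (−0.28, adjusted p = 0.0312) differed, 7 in all, when 30.4% of all genes did.

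**Figure D5:**
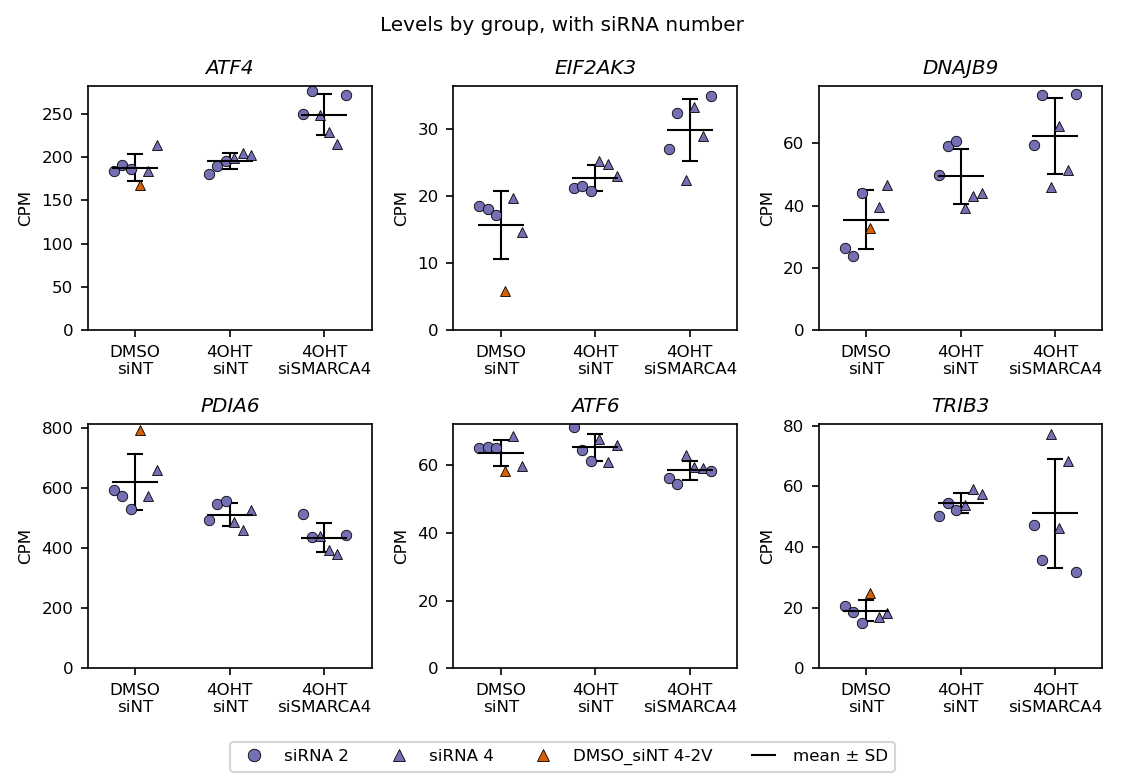
CPM of 6 members by group (points; circles siRNA 2, triangles siRNA 4, orange DMSO_siNT 4-2V), with the mean and SD of 6 libraries. ATF4 is the gene whose knockdown libraries all lie above the 4OHT_siNT libraries, and TRIB3 runs from 31.7 to 77.3 CPM within the knockdown group.

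Set against DMSO_siNT, the 4OHT_siSMARCA4 libraries had 12 members higher and 3 lower, 15 of 29 in all (51.7%, against 50.5% of all genes, 23.3% higher and 27.3% lower). This comparison shares its libraries with those above, so the values are only set side by side. ERN1 was higher by 1.84 and TRIB3 by 1.43 on the log2 scale, beside 1.69 and 1.53 without knockdown, EDEM1 by 1.02 beside 0.95, and EIF2AK3 by 0.92 beside 0.53. ATF4 (0.41) and DNAJC3 (0.28) were higher and HSP90B1 (−0.62) lower here, and none of the 3 passed without knockdown. Without DMSO_siNT 4-2V the HSP90B1 value was −0.26 (adjusted p = 0.0553), when 59.1% of all genes differed. HSPA5 (0.11, adjusted p = 0.4) and PDIA4 (0.25, adjusted p = 0.157) passed without knockdown but not here; these changes between lists of calls were not tested as such.

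The siRNA numbers and the set letters were compared within groups. Between siRNA 2 and siRNA 4, no member differed in DMSO_siNT, 4OHT_siNT or 4OHT_siSMARCA4 (edgeR; 0.0512%, 0.0732% and 0.00732% of all genes did). At an unadjusted p under 0.05 they numbered 9, 3 and 8, and DESeq2 called 6, 0 and 0. For the siRNA and set comparisons no share of all genes was computed at an unadjusted p or in DESeq2. Those counts therefore cannot be read as a result about the members. The 4OHT effect differed between the numbers for no member in edgeR (0% of all genes; 6 members at an unadjusted p under 0.05 and 1 in DESeq2), nor did the knockdown effect (0.0146%; 5 and 0). In DMSO_siNT the members of lowest p had lower values with siRNA 2, XBP1 by −0.46 ± 0.12, DDIT3 by −0.80 ± 0.21 and SEC61B by −0.97 ± 0.26 on the log2 scale (adjusted p = 0.0625 for each), and library 4-2V, among the 3 of siRNA 4, was the highest of the 6 for DDIT3 and SEC61B. Between V and VM sets no member differed in edgeR in DMSO_siNT (0.324% of all genes; 4 members at an unadjusted p under 0.05 and 2 in DESeq2) or 4OHT_siSMARCA4 (0.101%; 3 and 0). Without 4-2V, DNAJB9 (−0.80), HERPUD1 (−0.68) and XBP1 (−0.51) were lower in the V sets of DMSO_siNT (adjusted p = 0.04, 0.0191 and 0.0445; 0.862% of all genes), where both V libraries left carry siRNA 2, as does 1 of the 3 VM libraries.

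Levels of different genes can be set side by side only per length, taken here as the merged exons of all annotated transcripts. That length can be longer than the transcripts expressed here, which were not measured, and can so lower a gene's value and rank. It was longest for the sensors EIF2AK3 (20691 bases), ERN1 (19153 bases) and ATF6 (14263 bases). In 4OHT_siNT, CPM per kb of merged exon placed CALR first, at 664 ± 26.7 (SD, n = 6), then HSPA5 at 198 ± 10.3, PDIA6 at 125 ± 9.30 and PDIA4 at 104 ± 4.50. HSP90B1, SEC61B, ATF4 and PPP1R15A followed within 73.8 to 82.9, a stretch whose neighbours lie within their SDs. Of the sensors, ATF6 was at 4.58 ± 0.275, EIF2AK3 at 1.10 ± 0.0930 and ERN1 at 0.811 ± 0.178, the lowest 3 of the tested members. ERN1, which had the largest rise of the 29, was also the lowest of them per kb of merged exon.

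A further 100 genes of the pathway, in lists by role, gave 96 that could be tested. Between 4OHT_siNT and DMSO_siNT 43 of them differed (44.8%, beside 52.8% of all genes), and of 29 other ATF4 targets 12 were higher and 8 lower. Over all genes tested 23.9% were higher and 28.9% lower, the shares against which the counts of each list here are to be read. GDF15, a stress-induced cytokine, ran from 55.2 to 117 CPM (median 79.7) in DMSO_siNT and from 1391 to 1705 CPM (median 1496) in 4OHT_siNT, far apart, with a log2 fold change of 4.17 ± 0.17 (adjusted p = 6.27e-13). DDIT4, an inhibitor of mTORC1 signalling, was higher by 1.49 ± 0.22 on the log2 scale (adjusted p = 1.03e-05). NUPR1, a stress-responsive transcriptional regulator, was lower by a log2 fold change of −1.99 ± 0.39 (adjusted p = 0.000304), and PHGDH, the first enzyme of serine synthesis, by −1.55 ± 0.16 (adjusted p = 1.24e-07). Of the other folding enzymes 5 of 15 were higher and none lower, led by PDIA5 (0.62 ± 0.12) and ERO1B (0.46 ± 0.18), an oxidase that recharges the isomerases. Other degradation and ER-phagy genes had 3 of 16 higher, led by EDEM3 (0.73 ± 0.13) and AUP1 (0.62 ± 0.15), and 1 lower, HERPUD2 (−0.48 ± 0.15). Translocation and signal peptide genes had 3 of 21 higher, led by the signal recognition particle receptor subunits SRPRA (0.63 ± 0.16) and SRPRB (0.39 ± 0.11), and 4 lower, led by OSTC (−1.15 ± 0.20) of the oligosaccharyltransferase and SPCS2 (−0.85 ± 0.28) of the signal peptidase. The other sensors, proteases, kinases and phosphatase subunits had 4 of 15 higher, led by TRAF2 (0.63 ± 0.17), which IRE1 recruits, and DNAJA3 (0.51 ± 0.20), and 3 lower, led by CREB3L1 (−0.62 ± 0.20) and EIF2AK4 (−0.45 ± 0.15), the eIF2 kinase of amino acid shortage.

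With SMARCA4 knockdown 7 of these 96 genes differed (7.29%, beside 10.6% of all genes). SLC7A11, the cystine transporter subunit and an ATF4 target, ran from 48.7 to 79.2 CPM (median 60.6) in 4OHT_siNT and from 80.9 to 197 CPM (median 127) in 4OHT_siSMARCA4, without overlap, with a log2 fold change of 1.14 ± 0.20 (adjusted p = 0.00118). In DMSO_siNT it was at 91.9 to 128 CPM, above every 4OHT_siNT library. CEBPG, a partner of ATF4 in binding DNA, was higher by 0.49 ± 0.12 (adjusted p = 0.00899), and NUPR1 was lower by a log2 fold change of −1.35 ± 0.41 (adjusted p = 0.0379); the other 26 of 29 ATF4 targets did not pass. ERO1A, an oxidase for disulfide bonds, was higher by 0.69 ± 0.09 (adjusted p = 7.56e-05). CREB3, an ER-bound transcription factor, and WFS1 (wolframin), an ER membrane protein, were lower by log2 fold changes of −0.45 ± 0.12 (adjusted p = 0.0254) and −0.57 ± 0.16 (adjusted p = 0.0281). Without DMSO_siNT 4-2V the count was 20 of 96, when 24.6% of all genes differed.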

How the data were processed

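Poly(A) RNA was sequenced, and the deposited table holds raw counts per gene for 18 libraries of 29 labelled samples, in 36 columns of 2 lanes each. The submitters' notes name STAR 2.7.8a, DESeq2 1.36.0 and hg38. The annotation and whether the authors counted by strand are not given in the sources used here. Lanes were summed, and 17 libraries were matched to samples by name and 1, headed 2-1VM, to its group alone because no sample title matches it. Genes passing filterByExpr (minimum count 10, 99.9% of counts) were scaled by TMM and tested in edgeR 4.0.16 (R 4.3.3, limma 3.58.1) with the quasi-likelihood test, all 3 groups in 1 fit without covariates, Benjamini-Hochberg over all genes. The biological coefficient of variation was 23.3%. Levels are CPM, and intervals are SE unless given as SD. The steps were tested on simulated counts for 4OHT_siSMARCA4 against 4OHT_siNT, with 50 of 12858 genes changed at each size. How far the shares recovered hold for the 29 members was not tested. With edgeR 10% of 1.3-fold, 26% of 1.5-fold, 76% of 2-fold and 94% of 4-fold changes were recovered, and 3.74% of calls were false. With DESeq2 12%, 38%, 94% and 98% were recovered, and 19.3% of calls were false. The members and lists were chosen with earlier results of these data known. All 30 members were described, and from each other list at most the 2 largest rises and 2 largest falls among called genes. Alternatives were RLE scaling, DESeq2 1.42.0, other count filters, fits without single libraries, within VM sets, by siRNA, with the set label as a block, and stricter thresholds; fits by siRNA 4 and with the block that also left out DMSO_siNT 4-2V, and fits within VM sets and with the block that used the library headed 2-1VM by its column name, were chosen after seeing the data. Promoters were read from RefSeq (GRCh38.p14) and overlaps from the GENCODE annotation of hg38.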

Additional observations from a re-analysis of the deposited data

Results flagged for a closer look

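Of 87 sets of 6 libraries (29 members in 3 groups), 12 held a library whose gap to its nearest neighbour over the group's whole range exceeded Dixon's 95% limit for 6 values, and about 1 in 20 sets, or 4.35, would do so by chance. DMSO_siNT 4-2V was that library in 5 sets, lowest for HYOU1 (gap 0.869 of the range), EIF2AK3 (0.751), HSPA5 (0.745) and PDIA4 (0.727), and highest for HSP90B1 (0.754). It was also the library with the lowest total count of the 18 and the one low in ESR1 and HRAS.

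Library 4-3V of 4OHT_siSMARCA4 was farthest out in 5 sets, lowest for DNAJB11 (0.765), PPP1R15A (0.69), CRELD2 (0.652) and SDF2L1 (0.639), and highest for SYVN1 (0.633). Library 2-1VM of 4OHT_siNT was lowest for CRELD2 (0.667) and SEC61B (0.647).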

How the results depend on the processing

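Deviations from the group means correlated between 15 same-set pairs at −0.29 to 0.30 (median 0.035), with 5 over 0.1. Between 81 pairs of different sets they correlated at −0.30 to 0.29 (median 0.001), with 26 over 0.1. The DMSO_siNT mean includes 4-2V, so whether the set labels pair the samples cannot be told from these values. The fit with a replicate block on the set label also lacks the library headed 2-1VM, which no sample title matches. It called 5 members in 4OHT_siNT against DMSO_siNT beside 14 (9 without DMSO_siNT 4-2V, a fit chosen after seeing the data), when 32.7% of all genes passed (48.3% without 4-2V), and 0 beside 1 with knockdown (1.77% of all genes). Leaving out that library with no block gave 0 with knockdown, too (6.93%). Other pathway genes called under the block were 21 in the first comparison, beside 43, and 2 in the second, beside 7. With that library placed by its column name (chosen after seeing the data), the block gave 5 members and 26 other genes (37.7% of all genes), and 2 and 4 with knockdown (7.41%).

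For 4OHT_siNT against DMSO_siNT, siRNA 4 alone gave 5 members (9 without 4-2V, added later) and 24 other genes, when 35.6% of all genes passed (44.3% without 4-2V), adjusted p under 0.01 gave 8 members, and a 1.5-fold limit 7 members and 19 other genes. No share of all genes was computed for these last 2 limits, here or for the knockdown. Leaving out 1 library gave 10 to 16 members and 41 to 54 other genes, when 49% to 58.3% of all genes passed. For the knockdown, the members called were 2 with DESeq2 (14.9% of all genes), 4 with only those 2 groups (26.9%), 6 within VM sets (21%; 7 and 30.4% with the library headed 2-1VM), 3 without 4-2V (24.6%), 7 with siRNA 2 alone (25.7%), and 0 without the library headed 2-1VM, with siRNA 4 alone (0.0303%; 6.75% without 4-2V), under 0.01 and over 1.5-fold. Leaving out 1 library gave 0 to 3 (3 without DMSO_siNT 4-2V, and 0 without 4OHT_siSMARCA4 2-3VM or the library headed 2-1VM). In those fits 6.93% to 24.6% of all genes passed. The other genes called were 11, 27, 17, 20 and 24 under the first 5 of these (24 within VM sets with the library headed 2-1VM), 0 with siRNA 4 alone (11 without 4-2V), 3 under 0.01 and 3 over 1.5-fold, and 4 to 20 leaving out 1 library (4 without 4OHT_siSMARCA4 4-2VM). For 4OHT_siSMARCA4 against DMSO_siNT, siRNA 4 alone gave 7 members (31.2% of all genes) and leaving out 1 library 14 to 15 (47.6% to 59.1%).

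Between siRNAs in DMSO_siNT, 3 members were called over all genes with at least 1 count, 6 with DESeq2, and 0 to 12 leaving out 1 library (12 without 4-2VM, 2 without 4-3VM). For the 4OHT effect between siRNAs the counts were 1 with DESeq2 and 0 to 6 (6 without DMSO_siNT 4-2VM). Between V and VM sets in DMSO_siNT they were 3 without 4-2V (0.862% of all genes), 2 with DESeq2 and 0 to 3 (1 without 2-2V). In 4OHT_siSMARCA4 they were 0 to 1 (1 without 2-3V). No share of all genes is given for the other fits between siRNAs or sets here, so their counts cannot be read as a result about the members.

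The sign turned, with a call on 1 side, for DNAJB9 (−0.0186 in 4OHT_siNT against DMSO_siNT with siRNA 4 alone and no 4-2V) and, with siRNA 2 alone, for SDF2L1 (0.48), XBP1 (0.28) and MANF (0.44) in that comparison and SDF2L1 (0.54), XBP1 (0.26) and SEC61B (0.31) in 4OHT_siSMARCA4 against DMSO_siNT. The causes were not tested. For the 14 members called in 4OHT_siNT against DMSO_siNT, 345 of 434 alternative values kept direction and call. Smaller changes may be missed, both in the fits of 6 libraries per group and in those with 2 or 3 libraries in some arms.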
